A study of Mus musculus with 6 samples.

Results

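The mitochondrial ribosomal proteins were taken as every row of the deposited expression table whose gene name is Mrpl or Mrps followed by a number and at most 1 letter, with names ending in -ps (pseudogenes) left out. The rule gave 77 genes of 54146, of which 48 carried an Mrpl name (large subunit) and 29 an Mrps name (small subunit). Expression was measured by RNAseq in D2A1, a mouse mammary tumor cell line labelled with the genotype Control, grown as spheroids in 3D Matrigel culture in DMEM with 10% FBS. Cells received recombinant SLURP1 at 50 nM (rSLURP1) in 3 libraries or recombinant GST at 50 nM, the control protein (rGST), in the other 3. All 6 libraries thus share the cell line and the culture conditions, and the comparison asks which of the 77 genes differ with the protein added. Values are TPM (transcript abundances) that the authors corrected for transcript length and scaled to the same total in each library.

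Mitochondria carry a small genome that encodes a few subunits of the respiratory chain and the rRNAs of the mitochondrial ribosome. The ribosomal proteins themselves are encoded in the nucleus, made in the cytosol and imported, and they assemble with the rRNAs into a large subunit, which forms peptide bonds, and a small subunit, which reads the mRNA. Some have a counterpart in the bacterial ribosome and others were added during the evolution of mitochondria.

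The genes lay on 17 chromosomes, with 10 on chromosome 11 and 8 on chromosome 17, and all 77 matched protein-coding genes of GENCODE M21 (GRCm38). Every member passed the filter for testing, 1 TPM or more in 3 or more libraries, as did 12301 genes in all. Of the 8 epithelial markers, Krt18, a keratin of simple epithelia in general, had 191 to 199 TPM. Krt8, its usual partner, had 1.4 to 1.66 TPM with rGST and 0.51 to 0.81 TPM with rSLURP1 and was called lower. Krt7 and Krt19 did not exceed 1.37 and 0.49 TPM and Cdh1 did not exceed 0.07 TPM, and Epcam, Krt5 and Krt14 were listed at 0 in all 6 libraries, so these markers do not show the labelled mammary origin. The summed TPM of the 8 fibroblast markers was 1008 to 1139 with rGST and 75.2 to 85.3 with rSLURP1, and 5 of the 8 were testable and all 5 were lower. The 6 leukocyte markers summed to 3.58 to 4.08 TPM with rGST and 7.85 to 10.6 with rSLURP1, nearly all of it Cd68, with Ptprc at 0.01 TPM or less, and the 4 endothelial markers stayed below 1 TPM. Whether these shifts have a part in the values below was not tested, and in bulk RNA fewer cells of a type and less RNA per cell cannot be told apart.

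As a group the mitochondrial ribosomal proteins moved little. Of the 77 genes, 5 rose and 40 fell with rSLURP1 in limma at an adjusted p of 0.05 or less, and 32 were not called. Across all genes tested, 8.66% rose and 58.5% fell, so the shares among the members (6.49% and 51.9%) lay near those of the table as a whole. No member changed by 2-fold in either direction, whereas 1.15% of all tested genes rose and 7.06% fell by at least that much. The log2 fold changes of TPM + 1 ranged from -0.67 to 0.52 with a median of -0.18. The median over all genes was -0.33, and 59 of the 77 members lay above that median. Every rSLURP1 library was below every rGST library for 40 members and above for 5, compared with 61.7% and 9.75% of all genes tested.

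**Figure D1:**
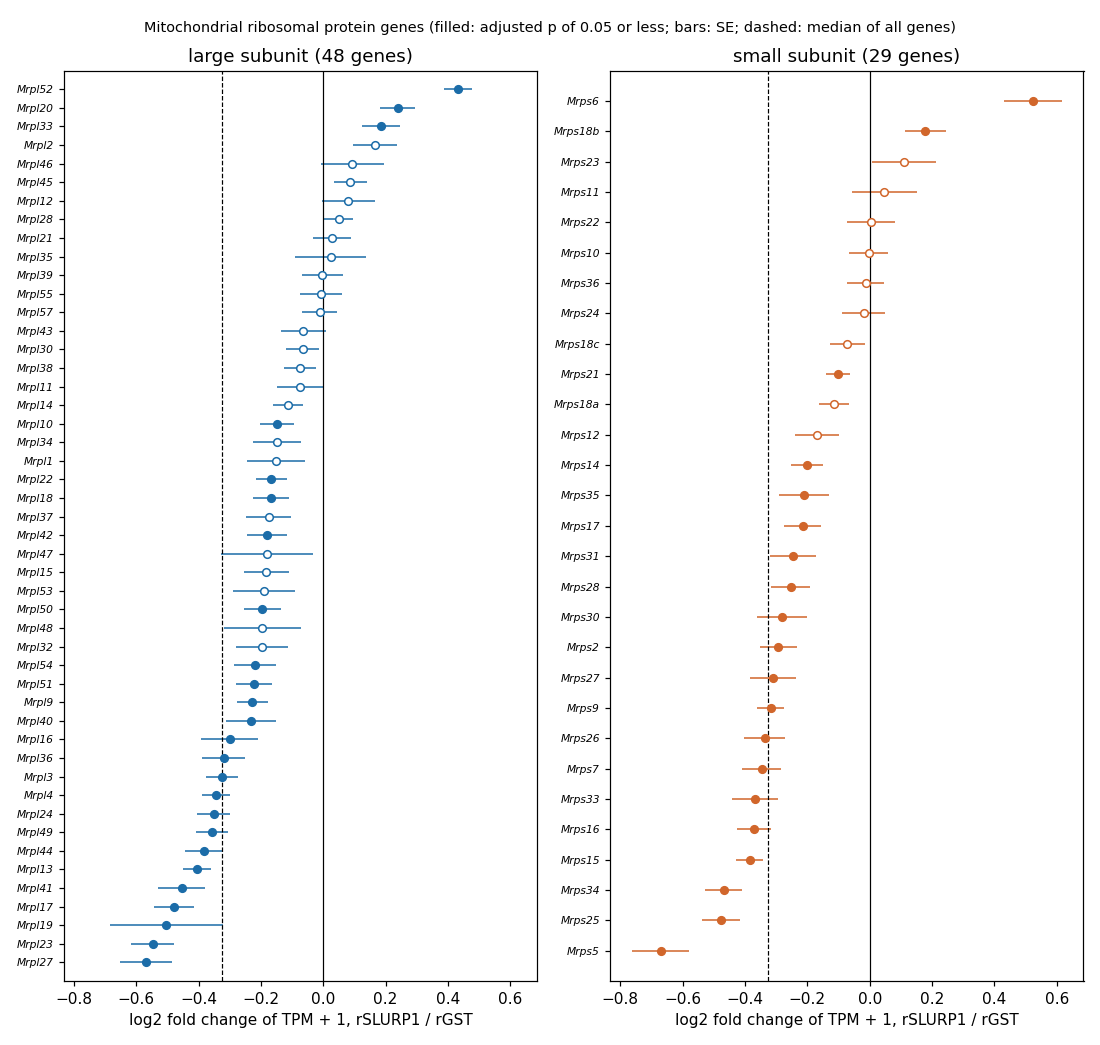
Log2 fold change of TPM + 1 (rSLURP1 over rGST, horizontal axis) of each of the 48 large subunit genes (left) and 29 small subunit genes (right), with bars for the SE of limma and filled points for an adjusted p of 0.05 or less. Most points lie between the median of all genes (dashed, -0.33) and 0, with Mrps6 and Mrpl52 farthest to the right and Mrps5 farthest to the left, and median-ratio scaling of the libraries shifts all points by a like amount.

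The sign of a small change in TPM depends on how the libraries are scaled. When libraries were instead scaled by the median of their gene-wise ratios (median-ratio scaling), the median of all genes moved to -0.00, and 36 members rose and 2 fell (26.0% and 25.2% of all genes). After correcting for the length and GC content of transcripts, 19 members rose and 10 fell (24.0% and 24.5% of all genes). Of the 17 ways in which the fold changes were computed, all gave a positive value for 11 members and a negative value for 14, and the remaining 52 took both signs. How many of all genes kept the same sign or the same call in all 17 is not given here, so these counts have no share beside them. Mrps6, Mrpl52 and Mrpl20 were called higher in all 17, and Mrps5 was called lower in all 17. The results below therefore lead with these genes and with ratios of TPM between genes of the same library, which scaling a library by 1 factor does not change.

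To show the DNA upstream of members that differed in response, the 100 bases before the RefSeq start site are given for Mrpl52 and Mrpl20, which rose, Mrps22, which was not called, and Mrpl41, which fell, all with the TPM as deposited. These were picked from the 22 of 74 windows that hold no annotated exon of any gene, and they come from RefSeq on GRCm38.p6. Capitals mark the letters of the motifs searched, on either strand.
Mrpl52, chr14:54426809-54426908, plus strand: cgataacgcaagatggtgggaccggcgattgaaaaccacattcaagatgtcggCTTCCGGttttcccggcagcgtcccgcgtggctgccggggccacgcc
Mrpl20, chr4:155802778-155802877, plus strand: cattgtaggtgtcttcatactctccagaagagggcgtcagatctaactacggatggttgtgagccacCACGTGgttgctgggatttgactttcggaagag
Mrps22, chr9:98601680-98601779, minus strand: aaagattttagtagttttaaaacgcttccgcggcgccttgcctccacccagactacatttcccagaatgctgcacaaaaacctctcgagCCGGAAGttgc
Mrpl41, chr2:24975099-24975198, minus strand: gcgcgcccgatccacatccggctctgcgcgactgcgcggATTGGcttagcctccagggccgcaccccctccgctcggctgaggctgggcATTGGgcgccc
The Mrpl52 and Mrps22 windows hold the ETS motif (CCGGAAG or its reverse complement), which starts 47 and 11 bases before the start site. Mrps22, not called as deposited, was called higher with median-ratio scaling (0.35) and after the correction for length and GC content (0.34). An E-box (CACGTG) begins 33 bases upstream of Mrpl20. The CCAAT motif, on the opposite strand, begins 61 and 11 bases upstream of Mrpl41.

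Promoters (250 bases before and 50 after the start site) were held in the RefSeq table for 68 of the 77 members, 74 windows in all. The ETS motif was in 33.8% of these windows, compared with 18.4% of the 10700 windows of tested genes and 8.86% of all 32851 windows. The NRF1 motif (GCGCATGC) was in 10.8% of member windows and 5.63% of those of tested genes, and the YY1 motif (ATGGCGG) in 17.6% and 8.58%. Near the share in tested genes were the E-box (9.46% and 10.1%), the TATA letters (TATAAA, 6.76% and 6.75%) and CCAAT (40.5% and 38.2%). No motif contains the letters of another. The median GC content of the member windows was 58.5%, against 61.3% for tested genes. These are counts of letters in a window and were not set against the fold changes.

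Mrps6 showed the largest increase. The protein is the counterpart of bacterial S6 in the platform of the small subunit, and its gene (ENSMUSG00000039680.10) lies at chr16:92058270-92112227 on the plus strand. TPM of Mrps6 were 86.2, 78.5 and 100.2 with rGST and 117, 128 and 136 with rSLURP1. All 3 rSLURP1 libraries were above all 3 rGST libraries. The log2 fold change was 0.52 ± 0.093 (SE; limma, adjusted p = 0.00176), 0.85 above the median of all genes. Exons of Slc5a3 cover 10.4% of the exon bases of Mrps6 on the same strand, and Slc5a3 itself had a log2 fold change of 0.08 (limma, adjusted p = 0.282).

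Mrpl52 and Mrpl20 also rose in each of the 17 computations. Mrpl52 (chr14:54426909-54429756, plus strand) is a large subunit protein with no bacterial counterpart, and its TPM were 245, 231 and 234 with rGST and 309, 314 and 338 with rSLURP1. The treatments did not overlap, and the log2 fold change was 0.43 ± 0.045 (SE; limma, adjusted p = 0.000124). Mrpl20 (chr4:155802878-155809975, plus strand), the counterpart of bacterial L20, an rRNA-binding protein, was lower in level, at 58.4, 58.5 and 60.2 TPM with rGST and 70.7, 74.1 and 65.05 TPM with rSLURP1. Again the libraries separated by treatment, with a log2 fold change of 0.24 ± 0.056 (SE; limma, adjusted p = 0.00644).

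The 2 other members that rose, Mrpl33 and Mrps18b, were near the threshold. Mrpl33, the most abundant member and the counterpart of bacterial L33, had 325, 347 and 361 TPM with rGST and 370, 423 and 385 TPM with rSLURP1 (log2 fold change 0.19; limma, adjusted p = 0.0271). Its libraries did not overlap by treatment, but the call was lost without rGST replicate 1, rGST replicate 2 or rSLURP1 replicate 2 (0.15, 0.19 and 0.13). Mrps18b had 46.7, 52.0 and 45.9 TPM with rGST and 51.8, 57.2 and 55.0 TPM with rSLURP1, so that 1 rGST library exceeded the lowest rSLURP1 library (log2 fold change 0.18; limma, adjusted p = 0.0404). This call was lost without rGST replicate 1 or 3 and without rSLURP1 replicate 2 or 3 (0.16, 0.15, 0.15 and 0.17). The next in order, Mrpl2 (0.17), Mrps23 (0.11) and Mrpl46 (0.09), were not called as deposited. With median-ratio scaling each of them was called higher (0.52, 0.46 and 0.43). After the correction for length and GC content Mrpl2 (0.31) and Mrps23 (0.32) were called higher and Mrpl46 (0.25) was not called. Mrpl2, the counterpart of bacterial L2, was called without rGST replicate 3 (0.21) or rSLURP1 replicate 3 (0.23), and Mrps23 without rGST replicate 1 (0.23).

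Mrps5 showed the largest decrease. It encodes the counterpart of bacterial S5, a protein near the entry of the mRNA in the small subunit, and lies at chr2:127587222-127606829 on the plus strand (ENSMUSG00000027374.12). TPM of Mrps5 were 83.0, 84.0 and 85.9 with rGST and 44.9, 58.0 and 55.8 with rSLURP1. Each rSLURP1 library was below each rGST library, and rSLURP1 replicate 1 was the lowest. The log2 fold change was -0.67 ± 0.092 (SE; limma, adjusted p = 0.000465), 0.35 below the median of all genes, and it was still -0.32 with median-ratio scaling (limma, adjusted p = 0.0148). A processed pseudogene, Gm13328, shares 12.4% of the 50-base sequences of Mrps5 and had a mean of 0.27 TPM.

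Since Mrps6 and Mrps5 belong to the same subunit, their ratio within a library was compared. It was 1.04, 0.935 and 1.17 with rGST and 2.62, 2.202 and 2.44 with rSLURP1, a 2.31-fold higher mean. A like ratio in the large subunit, Mrpl52 over Mrpl27, was 3.11, 2.69 and 3.18 with rGST and 6.37, 5.93 and 5.75 with rSLURP1, 2.01-fold higher. Neither ratio overlapped between treatments, and both pairs were chosen for their fold changes, so these values are a description. With 3 libraries against 3, an exact two-sided permutation test of a single value cannot give a p below 0.1.

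**Figure D2:**
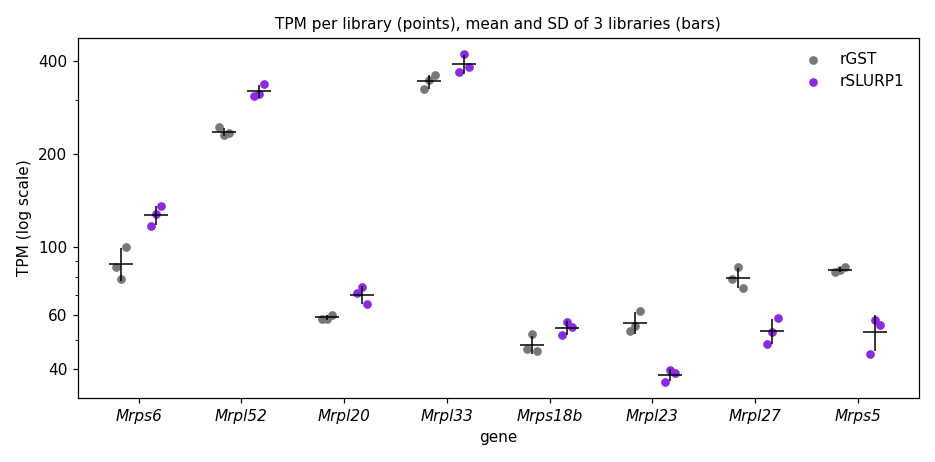
TPM (log scale, vertical axis) of 8 members in each rGST (grey) and rSLURP1 (purple) library, with bars for the mean and SD of 3 libraries. Mrps6, Mrpl52, Mrpl20 and Mrpl33 separate upward with rSLURP1, Mrpl23, Mrpl27 and Mrps5 separate downward, and Mrps18b overlaps.

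The decrease of Mrpl27, the counterpart of a bacterial protein that reaches toward the peptidyl transferase center, was the next largest. Its TPM were 78.7, 86.1 and 73.8 with rGST and 48.5, 53.0 and 58.7 with rSLURP1 (log2 fold change -0.57 ± 0.083, SE; limma, adjusted p = 0.000652). The groups were apart, and the gene (chr11:94653767-94660089, plus strand) was called lower in 16 of the 17 computations, all except median-ratio scaling. A processed pseudogene, Gm6304, shares 29.3% of its 50-base sequences and had a mean of 0.125 TPM.

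Mrpl23, at the exit of the nascent peptide tunnel, had 53.2, 55.2 and 62.1 TPM with rGST and 36.6, 39.99 and 39.0 TPM with rSLURP1 (log2 fold change -0.55 ± 0.069, SE; limma, adjusted p = 0.000311). It was the only member beside Mrps5 that was also called lower with median-ratio scaling (-0.20), but after the correction for length and GC content it was -0.15 and not called (limma, adjusted p = 0.0811). Mrpl17 (-0.48), Mrps25 (-0.48), Mrps34 (-0.47) and Mrpl41 (-0.45) fell as well, at adjusted p from 0.000293 to 0.00124 in limma, and no library of either treatment crossed the other. With median-ratio scaling these 4 were between -0.13 and -0.11 and were not called. The correction for length and GC content also ended the calls of Mrpl17 (-0.088) and Mrps25 (-0.083).

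Mrpl19 differed from the rest in its spread. Its TPM were 20.5, 20.3 and 31.6 with rGST and 18.99, 14.02 and 16.5 with rSLURP1, with rGST replicate 3 well above the others (log2 fold change -0.50 ± 0.18, SE; limma, adjusted p = 0.0391). The call was lost without rGST replicate 3 (-0.30), rSLURP1 replicate 2 (-0.40) or rSLURP1 replicate 3 (-0.51). Exons of Gcfc2 on the opposite strand cover 36.0% of its exon bases, and Gcfc2 fell by 0.45 on the log2 scale (limma, adjusted p = 0.0121).

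In level, the members spanned from 13.3 TPM (Mrpl1) to 368 TPM (Mrpl33) as means of all 6 libraries. With rGST, 14 members were above 100 TPM and 3 below 20 TPM. The order of the levels was nearly the same in both treatments (Spearman correlation of the means 0.974 across 77 genes, which share the same libraries). TPM varied between libraries of a treatment with a median SD of 0.082 on the log2 scale, against 0.10 for all genes tested.

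The most abundant large subunit genes after Mrpl33 and Mrpl52 were Mrpl30, Mrpl14 and Mrpl13. Mrpl30 had 191, 183 and 179 TPM with rGST and 177, 165 and 186 TPM with rSLURP1, which overlapped (log2 fold change -0.07). Mrpl14, the counterpart of bacterial L14 at the interface of the subunits, overlapped by 1 library, at 174, 170.1 and 182 TPM with rGST and 154, 170.2 and 162 TPM with rSLURP1 (-0.11, not called, and called lower at -0.15 without rSLURP1 replicate 2). With median-ratio scaling Mrpl30 (0.29) and Mrpl14 (0.24) were called higher. Mrpl13 fell without overlap, from 189, 183 and 183 TPM to 146, 140.4 and 132 TPM (-0.41; limma, adjusted p = 0.000172), and was -0.05 and not called with median-ratio scaling.

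Mrps21, the counterpart of bacterial S21, was by far the most abundant small subunit gene. It had 356, 348 and 353 TPM with rGST and 318, 323 and 343 TPM with rSLURP1, and every rSLURP1 library was lower. The log2 fold change of -0.10 reached the threshold only narrowly (limma, adjusted p = 0.0496), was lost without any single library other than rSLURP1 replicate 3 (-0.11 to -0.08), and was 0.25 and called higher with median-ratio scaling. Mrps14 fell by 0.20 on the log2 scale (limma, adjusted p = 0.00978), and had 93.8, 101 and 102 TPM with rGST and 85.6, 89.8 and 83.3 TPM with rSLURP1, but was 0.15 and called higher with median-ratio scaling.

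Members with a known place in the ribosome were followed by site. The stalk that recruits translation factors (Mrpl10, Mrpl11, Mrpl12 and Mrpl53) had 0 genes higher and 1 lower of 4, with a median log2 fold change of -0.11. Mrpl10, its base, was the gene that fell as deposited, from 48.3, 46.7 and 52.3 TPM to 44.2, 44.0 and 44.4 TPM (-0.15; limma, adjusted p = 0.0412). With median-ratio scaling Mrpl10 was 0.20 and called higher. Mrpl12, which also binds the mitochondrial RNA polymerase, overlapped between treatments, at 74.1, 74.6 and 88.8 TPM with rGST and 78.7, 91.1 and 81.2 TPM with rSLURP1 (0.08).

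Around the exit of the peptide tunnel, 4 of 6 genes fell and 0 rose, with a median of -0.26. The 4 were Mrpl23, described above, Mrpl44 (-0.38), Mrpl24 (-0.35) and Mrpl22 (-0.17). Of these, Mrpl22 was called higher with median-ratio scaling (0.18). Mrpl45, which holds the ribosome at the inner membrane, went from 33.6, 34.22 and 34.40 TPM to 37.3, 34.44 and 37.0 TPM, above rGST in each rSLURP1 library yet not called (0.09; limma, adjusted p = 0.177). Mrpl39 was at 23.7 ± 1.27 TPM with rGST and 23.6 ± 1.16 TPM with rSLURP1 (SD, n = 3).

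In the central protuberance, the contact between the subunits at the top of the large one, 3 of 6 fell (Mrpl27, Mrpl40 and Mrpl18) and 0 rose, with a median of -0.18. Of these, Mrpl18 was called higher with median-ratio scaling (0.18). Mrpl46, of the same site, had 18.04, 16.52 and 18.6 TPM with rGST and 21.6, 19 and 16.56 TPM with rSLURP1, which overlapped. Of 5 small subunit genes of the decoding site and mRNA path, 3 fell (Mrps5, Mrps7 and Mrps2) and 0 rose, with a median of -0.29. Mrps12, the protein of the decoding center whose bacterial counterpart is hit by streptomycin resistance mutations, had 40.1, 37.8 and 38.0 TPM with rGST and 37.7, 33.2 and 32.0 TPM with rSLURP1, all lower and yet not called (-0.17; limma, adjusted p = 0.0648). Counts of so few genes, 1 of 4, 4 of 6, 3 of 6 and 3 of 5 that fell, stand beside 58.5% of all genes. With median-ratio scaling 3 of 4, 3 of 6, 3 of 6 and 1 of 5 of their genes were instead called higher, beside 26.0% of all genes.

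The 3 Mrps18 genes encode related proteins that sit at different places in the ribosome, of which Mrps18c is counted below as the counterpart of bacterial S18 and the other two as mitochondrial. Mrps18b rose as given above. Mrps18a, which is part of the large subunit in the assembled ribosome despite its name, had 102, 98.27 and 107 TPM with rGST and 91.8, 98.27 and 93.8 TPM with rSLURP1 (-0.11, not called, and called lower at -0.14 without rSLURP1 replicate 2). It was called higher with median-ratio scaling (0.24) and after the correction for length and GC content (0.20). Mrps18c was not called as deposited, at 107, 116 and 122 TPM with rGST and 111, 110.4 and 107 TPM with rSLURP1 (-0.07). With median-ratio scaling Mrps18c was called higher (0.28). The differences between the 3 genes were not tested.

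Mrps30 is likewise a large subunit protein, and Mrps36 belongs to the oxoglutarate dehydrogenase complex and not to the ribosome. Mrps30 fell, from 19.6, 21.04 and 19.4 TPM to 14.6, 17.1 and 17.3 TPM (-0.28; limma, adjusted p = 0.0164), a call lost without rGST replicate 2 (-0.25). Mrps36 had 71.8, 70.2 and 70.4 TPM with rGST and 64.8, 70.7 and 75.5 TPM with rSLURP1, and the treatments overlapped (-0.01).

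By origin, the 45 members with a counterpart in bacteria had 3 higher and 24 lower genes and a median of -0.18. The 31 members that the unified ribosome nomenclature lists as mitochondrial had 2 higher and 16 lower and a median of -0.20. Over all genes tested, 8.66% rose and 58.5% fell, and the shares by origin were not tested against these or each other. With median-ratio scaling 22 of the 45 rose and 2 fell, and 13 of the 31 rose and 0 fell, beside 26.0% and 25.2% of all genes.

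The subunits were compared next. In the large subunit 3 genes rose and 22 fell of 48, with a median log2 fold change of -0.18, and in the small subunit 2 rose and 18 fell of 29, with a median of -0.22. The shares that fell, 45.8% and 62.1%, lay on either side of the 58.5% of all genes, and those that rose, 6.25% and 6.90%, below the 8.66% of all genes. The difference of the medians was 0.038, and placing Mrps18a and Mrps30 in the large subunit and leaving out Mrps36 made it 0.054. The mean log2(TPM + 1) of the large subunit minus that of the small subunit was -0.169, -0.114 and -0.123 in the rGST libraries and -0.085, -0.114 and -0.122 in the rSLURP1 libraries, so the treatments overlapped on this scale.

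On summed TPM the subunits gave another picture. Large over small subunit TPM was 1.59, 1.67 and 1.64 with rGST and 1.72, 1.74 and 1.70 with rSLURP1, a 1.05-fold higher mean without overlap. Mrpl33 and Mrpl52, both higher with rSLURP1, take a large part of this sum. Without these 2 genes, a choice made after seeing the data, the ratio was 1.33, 1.40 and 1.38 with rGST and 1.37, 1.37 and 1.33 with rSLURP1, and the treatments overlapped. Since the 2 genes were picked because they rose, a lower ratio with rSLURP1 follows from the choice, and no small subunit gene was left out in turn.

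**Figure D3:**
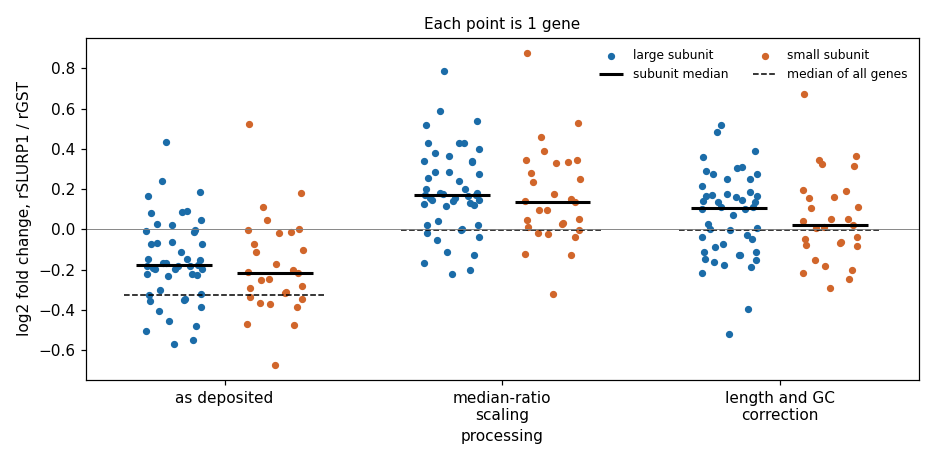
Log2 fold change (vertical axis) of each member of the large (blue) and small (orange) subunit with the TPM as deposited, after median-ratio scaling and after a correction for length and GC content, with the subunit medians as thick lines and the median of all genes dashed. The medians of both subunits move from negative (-0.18 and -0.22) to positive (0.17 and 0.13, then 0.11 and 0.02) with the scaling, and the ranges of the 2 subunits overlap in each.

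All 77 members together made up 5739, 5696 and 5904 TPM with rGST and 5244, 5442 and 5355 TPM with rSLURP1, or 0.578% ± 0.011 and 0.535% ± 0.0099 of all TPM (SD, n = 3). The nuclear-encoded subunits of the respiratory chain, which work beside the products of the mitochondrial ribosome, kept pace with them. Their summed TPM with rSLURP1 was 0.917 of that with rGST, against 0.925 for the members. Members over respiratory chain TPM was 0.254, 0.252 and 0.258 with rGST and 0.258, 0.257 and 0.257 with rSLURP1, which overlapped. Of the 77 respiratory chain genes tested, 7 rose and 45 fell (9.09% and 58.4%, against 8.66% and 58.5% of all genes), with a median of -0.20. As for the members, the direction turned with median-ratio scaling, to 47 higher and 6 lower with a median of 0.15 (26.0% and 25.2% of all genes). The correction for length and GC content gave 16 higher and 22 lower (24.0% and 24.5% of all genes).

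The cytosolic ribosomal proteins, which serve the other ribosome of the cell, went the other way with the TPM as deposited. Of 80 tested, 77 rose and 1 fell (8.66% and 58.5% of all genes) with a median of 0.50, and their sum was 1.41-fold higher with rSLURP1. With median-ratio scaling 79 rose and 0 fell (26.0% and 25.2% of all genes). Their median was then 0.86 and that of the members 0.16, so both were positive and differed in size. After the correction for length and GC content these medians were 0.66 and 0.053. Mitochondrial over cytosolic ribosomal protein TPM was 0.0382 ± 0.00013 with rGST and 0.0251 ± 0.00039 with rSLURP1 (SD, n = 3), a ratio of 0.657 that scaling a library by 1 factor does not change. The rGST libraries lay between 0.0381 and 0.0383 and the rSLURP1 libraries between 0.0247 and 0.0254. The respiratory chain over cytosolic ribosomal protein ratio was 0.651 of its rGST mean, so the drop against the cytosolic ribosome was not found for the mitochondrial ribosome alone.

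**Figure D4:**
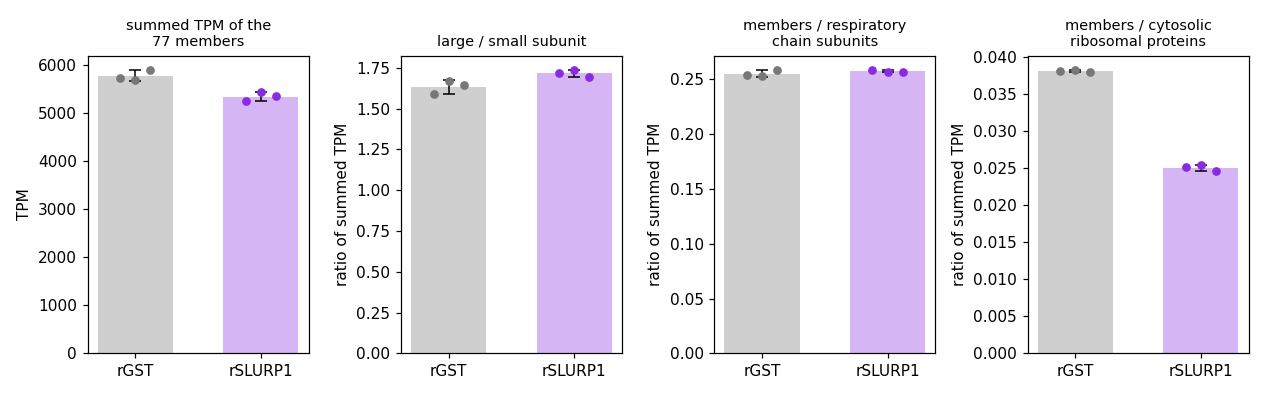
Summed TPM of the 77 members, and the ratios of summed TPM of large to small subunit, of members to respiratory chain subunits and of members to cytosolic ribosomal proteins, per library (points) with bars for the mean and error bars for the SD of 3 libraries, all axes starting at 0. The ratio to cytosolic ribosomal proteins drops from 0.0382 to 0.0251, the ratio to respiratory chain subunits overlaps, and the ratio of large to small subunit rises slightly, from 1.63 to 1.72.

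Other genes of mitochondrial translation were read from fixed lists. Of the 6 ribosomal proteins without an Mrpl or Mrps name that the table held, 0 rose and 3 fell: Gadd45gip1 (-0.56), Chchd1 (-0.37) and Ptcd3 (-0.34). Gadd45gip1 had 39.8, 40.6 and 40.4 TPM with rGST and 26.1, 26.1 and 28.6 TPM with rSLURP1, and remained lower with median-ratio scaling (-0.22). Aurkaip1 (-0.20), Dap3 (-0.15) and Ict1 (-0.15) were not called.

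Both rRNAs of the mitochondrial ribosome rose with rSLURP1, also with median-ratio scaling. The small subunit rRNA, mt-Rnr1, had 340, 419 and 369 TPM with rGST and 969, 496 and 539 TPM with rSLURP1, with rSLURP1 replicate 1 far above the others (0.77; limma, adjusted p = 0.0210). Without that library the fold change of mt-Rnr1 was 0.46 and still called, and the call was lost without rGST replicate 1 (0.69), rGST replicate 3 (0.76) or the filter on low genes (0.77). The large subunit rRNA, mt-Rnr2, rose from 530.3, 602 and 589 TPM to 1229, 1097 and 1226 TPM (1.04; limma, adjusted p = 1.03e-05). These libraries are labelled as polyA RNA, so the rRNA values cover only what that selection kept. Of the 13 protein-coding genes of mitochondrial DNA, 6 rose and 1 fell as deposited (8.66% and 58.5% of all genes), with a median of 0.24. With median-ratio scaling 11 rose and 0 fell (26.0% and 25.2% of all genes), with a median of 0.60. The correction for length and GC content gave 7 higher and 0 lower (24.0% and 24.5% of all genes).

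Among the 12 mitochondrial translation factors in the table, 0 rose and 7 fell, with a median of -0.31. Examples are Mtif3 (-0.47) and Mtif2 (-0.37), both initiation factors, and Taco1 (-0.42), an activator of the translation of mt-Co1. None of these 3 was called with median-ratio scaling, under which 4 of the 12 rose and 0 fell (median 0.039), and the correction for length and GC content gave 3 higher and 1 lower, the latter being Taco1. Of 26 genes for assembly of the ribosome and maturation of its rRNA, 1 rose and 14 fell, with a median of -0.34, against 4 and 3 with median-ratio scaling. Dhx30, an RNA helicase needed for assembly, fell from 72.7, 63.0 and 65.0 TPM to 35.8, 40.01 and 32.7 TPM (-0.87; limma, adjusted p = 9.09e-05), Rpusd4, a pseudouridine synthase of the rRNA, fell by 0.63 and Mtg1, a GTPase of assembly, by 0.87 on the log2 scale. All 3 were also called lower with median-ratio scaling. The gene that rose was Ddx28, another helicase of assembly (0.39), which was named after its value was seen.

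Of 7 genes for mitochondrial transcription and mRNA stability, 5 fell and 0 rose, among them Tfam (-0.61), Supv3l1 (-0.65) and Pnpt1 (-0.45). With median-ratio scaling 1 of the 7 rose and 0 fell, so that all 5 of these calls were lost. Of the 7 testable regulators of nuclear genes for mitochondria, 4 fell and 1 rose, against 1 and 3 with median-ratio scaling. Yy1, Nrf1 and Gabpa, whose DNA motifs (for Gabpa the ETS motif) were searched above, fell by 0.58, 0.44 and 0.40 on the log2 scale, of which Yy1 alone was also called lower with median-ratio scaling. The gene that rose was Esrra (0.34), also called higher with median-ratio scaling (0.68). Gabpb1 (0.060) and Myc (0.13) were not called as deposited and were called higher with median-ratio scaling (0.40 and 0.48). Esrra, Gabpb1 and Myc were named after their values were seen. In the 5 lists of nuclear genes for mitochondrial translation and its regulation, between 50.0% and 71.4% of the genes fell, around the 58.5% of all genes as deposited. With median-ratio scaling 26.0% of all genes rose and 25.2% fell.

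Gene length moved with the fold changes. Across the 77 members the log2 fold change had a Spearman correlation of -0.32 with the length of the longest annotated transcript, and across all genes it was -0.25, over genes of the same libraries. The 26 members with the shortest transcripts (488 to 1138 bases) had a median of -0.086, with 4 higher and 9 lower. The 25 of middle length (1219 to 2741 bases) had the lowest median, -0.23, with 1 higher and 16 lower. The 26 with the longest (2799 to 7300 bases) had a median of -0.21, with 0 higher and 15 lower. Over all genes tested, of any length, 8.66% rose and 58.5% fell, and the counts by length were not tested. After the correction for length and GC content the correlation across members was 0.22. The medians, from shortest to longest, were then -0.028, 0.013 and 0.13. Mrps6 (0.67), Mrpl52 (0.52), Mrpl20 (0.31), Mrps5 (-0.29) and Mrpl27 (-0.52) were still called after it, as were all 5 members that rose and 10 of the 40 that fell. Among the 30 that were no longer called were Mrpl23 (-0.15), Mrpl17 (-0.088), Mrps25 (-0.083), Mrpl19 (-0.11) and Mrpl13 (-0.036).

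**Figure D5:**
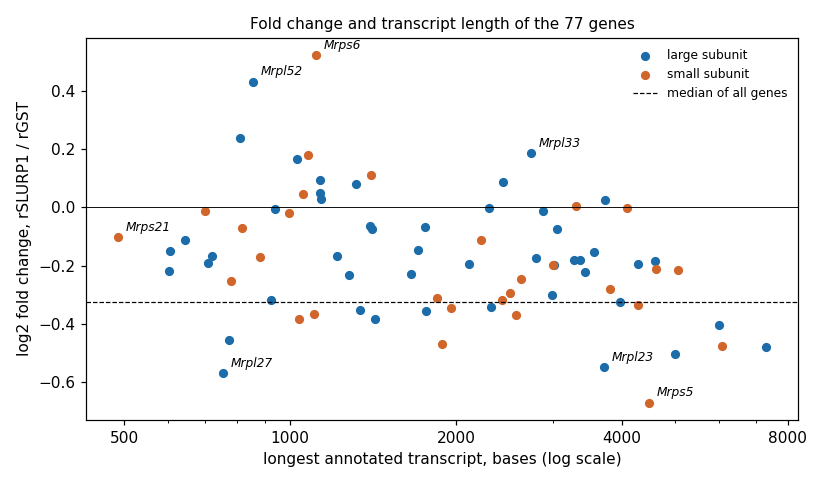
Log2 fold change (vertical axis, rSLURP1 over rGST, TPM as deposited) against the length of the longest annotated transcript in bases (log scale) for the 77 members, large subunit in blue and small subunit in orange, with the median of all genes dashed. The shorter genes reach higher, with Mrps6 and Mrpl52 near 1000 bases at the top, while Mrps5 at 4481 bases is the lowest and Mrpl27, at 756 bases, is low although short.

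Several members share bases with a neighbor, and the strand setting of the counting is not given in the sources used here. For 12 members at least 10% of the exon bases were also exon of a gene with a mean of at least 1 TPM. Leaving them out gave 4 higher and 35 lower of 65 (6.15% and 53.8%, against 8.66% and 58.5% of all genes), with a median of -0.20. Mrps34 overlaps Mapk8ip3 on the opposite strand over 63.4% of its exon bases and Nme3 on the same strand over 37.0%, and these partners fell by 0.90 and 1.38 on the log2 scale. Mrps25 overlaps Nr2c2 over 69.8%, which fell by 0.41, and Mrpl53 overlaps Gm42688 over 88.0%. How reads were divided between these members and their partners was not tested. In addition, 11 members share at least 10% of their 50-base sequences with another gene, most of them processed pseudogenes below 1 TPM.

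Of the 77 members, 26 (33.8%) lay head to head with another gene on the opposite strand, with starts diverging by up to 1000 bases or overlapping by up to 500, compared with 15.95% of the 10945 tested protein-coding genes. Over the 23 pairs of a member and a tested neighbor that is no member, the fold changes had a Spearman correlation of -0.096 across genes of the same libraries. In 1 further pair both are members, Mrpl46 and Mrps11, a large and a small subunit gene on chromosome 7, with log2 fold changes of 0.09 and 0.05, neither called. Mrps18b, near the threshold as given above, rose while its neighbor Ppp1r10 fell by 0.25 on the log2 scale (limma, adjusted p = 0.0160). The median of all genes was -0.33.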

How the data were processed

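RNAseq libraries were grouped by their labels, 3 per treatment. Per the study's methods and the submitters' processing notes, adapters were removed with Cutadapt and mapping was to mm10 by STAR (2.5.2b), and the authors estimated expression with RSEM (1.3.3 in the notes) and deposited TPM for each library. The methods name Smart-seq2 and the labels a TruSeq mRNA kit, and the harvest was on day 5 by the methods. Whether replicates came from separate cultures is not stated, so p-values measure the spread between these libraries. TPM keeps no read depth, so counting error is unknown.

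The 12301 genes that reached 1 TPM in 3 or more libraries were tested on log2(TPM + 1) with limma (3.58.1, R 4.3.3; lmFit, eBayes with trend), rSLURP1 against rGST, with Benjamini-Hochberg adjustment over all of them and thresholds of 0.05 and 2-fold. Fold changes on this scale understate those of low genes. Alternatives were a pseudocount of 0.1, other filters, median-ratio and quantile scaling, no mitochondrially encoded genes, eBayes without trend, a correction for length and GC content (loess, span 0.3), a replicate block and each library left out. Length, GC content and coordinates came from GENCODE M21 (54079 of 54146 identifiers matched) and promoters from RefSeq (GRCm38.p6). Tables were made with Python 3.11.15 (pandas 2.3.3, scipy 1.17.1). The fit was tested on simulated data. The members and lists were chosen with earlier results of these data known. Members were named by rule: the 8 largest and 8 smallest fold changes, the 5 most abundant of each subunit, structural exceptions and role lists, and from other lists up to 3 genes by p-value. Other members that head a count were added after their values were seen. Mrpl55, missing from the fixed list of mitochondria-specific proteins, was moved there.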

Additional observations from a re-analysis of the deposited data

How the results depend on the processing

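The counts of members that rose and fell depended mainly on scaling. As deposited, 5 rose and 40 fell. Median-ratio scaling gave 36 and 2 (24 and 1 in the large subunit, 12 and 1 in the small), quantile normalization 29 and 6 (19 and 4, 10 and 2), the correction for length and GC content 19 and 10 (13 and 4, 6 and 6), and the replicate block with that correction 20 and 10 (12 and 6, 8 and 4). Of all 12301 genes tested, 3111 rose and 2905 fell with quantile normalization. Of the 12293 genes in the replicate block with the correction, 2745 rose and 2777 fell. Median-ratio scaling gave 26.0% and 25.2% of all genes, and the correction alone 24.0% and 24.5%. Without a filter, and with eBayes without trend, 3 members rose, 1 of them in the small subunit. Leaving out each library gave 3 to 5 higher (1 to 2 in the small subunit). The median log2 fold change of the large subunit turned from -0.18 to 0.17, 0.14, 0.11 and 0.11 under the same 4 scalings, and that of the small subunit from -0.22 to 0.13, 0.076, 0.021 and 0.021. Leaving out each library gave -0.19 to -0.15 and -0.25 to -0.20. The difference of the medians, 0.038 as deposited, was 0.064 by quantile normalization, 0.085 by the correction for length and GC (the same under the replicate block), and 0.037 to 0.087 leaving out each library. The cause of these moves was not tested. Across all genes, 87.1% of the calls were lower as deposited, 49.2% with median-ratio scaling, 48.3% by quantile normalization and 50.5% after correcting for length and GC.

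Single members of opposite sign are listed here only among the 25 members named by rule. With median-ratio scaling they were Mrpl14 (0.24), Mrpl30 (0.29), Mrps14 (0.15), Mrps18a (0.24), Mrps18c (0.28), Mrps21 (0.25), Mrps30 (0.054) and Mrps36 (0.34), all called higher except Mrps30. With quantile normalization they were Mrpl14 (0.090), Mrpl30 (0.14), Mrps14 (0.073), Mrps18a (0.15), Mrps18c (0.17), Mrps21 (0.057), Mrps30 (0.12) and Mrps36 (0.27), and after correcting for length and GC (the same under the replicate block) Mrpl30 (0.17), Mrps14 (0.10), Mrps18a (0.20), Mrps18c (0.0096), Mrps30 (0.050) and Mrps36 (0.021). Mrps36 was also positive without mitochondrially encoded genes (0.013), and leaving out each library gave it -0.065 to 0.044, the only positive value being without rSLURP1 replicate 1.

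Over the 25 members named by rule and 16 alternatives, 307 values kept their direction and their side of the threshold, 47 kept the direction but were no longer called, 16 became called and 30 changed sign.

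Libraries with the same replicate number did not deviate together (correlations -0.056, -0.034 and -0.061, against 0.007 to 0.048 for other pairs). This does not settle whether libraries of the same number were set up together, which is not stated. With the replicate block, 5 members rose and 39 fell. Leaving out Mrpl33 and Mrpl52 from the subunit sums was chosen after seeing the data. Read depth is unknown, so how it limits low genes was not tested.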
